A study of Mus musculus with 6 samples.

Results

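The transcripts of FOXP3 and of the Ikaros, Runx and Ets factors that work with it were followed in Treg cells with and without OGT, the enzyme that attaches O-GlcNAc to nuclear and cytosolic proteins. The 10 genes are *Foxp3*, *Ikzf1* to *Ikzf5*, *Runx1*, *Runx3*, *Cbfb* and *Ets1*. They were taken by symbol from the 24420 genes measured by RNA sequencing, by a rule that uses no measured value, though the choice was made with earlier results of these data known. All 10 had enough counts to be tested. *Runx3* was the member with the largest difference in log2 terms. Its level was 59.5 ± 20.5 CPM in the Treg cells with OGT and 37.3 ± 1.03 CPM in those without (SD, n = 3 each), and it did not pass an FDR of 0.1. *Foxp3* itself was at 240.0 ± 56.2 and 275 ± 22.7 CPM (SD, n = 3 each), a difference within the spread between samples.

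The RNA came from YFP+ Treg cells of C57BL/6 female mice. In 3 samples the genotype was Foxp3YFP-Cre/wtOgtwt/fl (OGT-sufficient) and in 3 it was Foxp3YFP-Cre/wtOgtfl/fl (OGT-deficient). The mice of all 6 samples thus carried the YFP-Cre fusion at a single *Foxp3* allele and at least a single floxed *Ogt* allele. CD4+ cells were taken from lymph nodes with beads and then sorted on YFP, and the labels give no treatment and no age. Because *Foxp3* is X-linked, only those Treg cells of these females that use the chromosome with the fusion make Cre and YFP, so the sort selected cells by the activity of the *Foxp3* locus. The level of *Foxp3* cannot be told apart from that gate. In bulk RNA, fewer cells of a type and less RNA per cell cannot be told apart either.

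FOXP3 is the forkhead transcription factor that defines Treg cells, and it acts in complexes with other DNA-binding proteins. RUNX1 and RUNX3 bind DNA together with CBFB, their shared partner subunit, and contact FOXP3. They and ETS1 also bind regulatory elements of the *Foxp3* gene. The Ikaros zinc finger proteins Ikaros (*Ikzf1*), Helios (*Ikzf2*), Aiolos (*Ikzf3*), Eos (*Ikzf4*) and Pegasus (*Ikzf5*) share a dimerization domain. Helios and Eos are known as partners of FOXP3 in Treg cells.

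Total counts were between 3375454 and 4103552 per sample, of which the ribosomal RNA gene *Rn45s* took 24.2% to 37.1%. Levels are given as CPM, counts scaled to the TMM-scaled library size, and changes as log2 fold changes of OGT-deficient over OGT-sufficient cells. They were tested with edgeR's quasi-likelihood test over 10949 genes. OGT-sufficient replicate 3 stood apart from the rest, with a count in 18346 genes where the other 5 samples had one in 14412 to 15197, so values without it are given where they matter. Floxed *Ogt* was checked first, at 150.2, 170.3 and 252 CPM in the OGT-sufficient and 84.4, 67.3 and 96.4 CPM in the OGT-deficient samples, which is the direction of the labels. The T cell marker *Cd4* was between 532 and 725 CPM and the Treg marker *Il2ra* between 328 and 651 CPM. The CD8 T cell markers *Cd8a* and *Cd8b1* were between 2.62 and 7.90 CPM and between 9.43 and 22.2 CPM. A list of 12 macrophage genes summed to between 1437 and 6037 CPM, beside 2220 to 3418 CPM for 8 T cell identity genes. These markers therefore do not show that the libraries held Treg cells alone. Nothing in the labels says how the 3 samples of a group differ beyond being separate. The p-values therefore set a group difference against the spread between these samples.

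Promoter sequence was read for the members held by the RefSeq table of GRCm38.p6, the build of the deposited files, in windows from 250 bases before to 50 bases after an annotated start. The table held 10 windows of 6 members, *Foxp3*, *Ikzf1*, *Ikzf5*, *Runx1*, *Runx3* and *Cbfb*. The stretches of *Runx1* and *Runx3*, with that of the family member *Runx2*, are shown because *Runx3* and *Runx2* were the genes of this family with the lowest p. They are 30 bases long, 5′ to 3′ on the strand of the gene, with the letters ACCACA, the reverse complement of the Runx core TGTGGT, in capitals.
Runx1 (chr16:92826026-92826055, minus strand): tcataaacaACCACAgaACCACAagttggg
Runx2 (chr17:44814584-44814613, minus strand): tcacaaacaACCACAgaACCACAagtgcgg
Runx3 (chr4:135120502-135120531, plus strand): ggtccctcaACCACAgaACCACAaggccag
The run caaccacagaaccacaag of 18 bases is the same in all 3 and holds the core 2 times. It starts 26 bases after the annotated start in *Runx1* and 21 bases after it in *Runx2*, and 136 bases before it in *Runx3*. This run is found in 4 of all 32851 promoter windows, those of *Runx1*, *Runx2*, *Runx3* and *Gm16225*.

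The Runx core, searched on both strands, is in 2 of the 10 member windows and in 16.8% of all windows. The whole distal window of *Runx3*, the member with the lowest p, is given next with the core in capitals.
Runx3 (chr4:135120395-135120694, plus strand): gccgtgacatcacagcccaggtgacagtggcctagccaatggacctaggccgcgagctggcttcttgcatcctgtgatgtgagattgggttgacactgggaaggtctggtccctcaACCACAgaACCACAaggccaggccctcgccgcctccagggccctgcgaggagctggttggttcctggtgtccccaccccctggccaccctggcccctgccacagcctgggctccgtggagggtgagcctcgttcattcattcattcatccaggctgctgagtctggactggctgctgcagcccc
The Ets letters CGGAAG are in 0 of the 10 member windows and in 16.9% of all windows. The Ikaros letters TGGGAA are in 2 member windows, of *Foxp3* and *Runx3*, and in 25.6% of all. The forkhead letters TGTTTA are in 2, of *Foxp3* and *Runx1*, and in 13.4% of all. The window of *Foxp3* is shown because it holds both the forkhead letters, as TAAACA at 177 bases before the start, and the Ikaros letters, as TTCCCA at 3 bases after it, both in capitals.
Foxp3 (chrX:7579426-7579725, plus strand): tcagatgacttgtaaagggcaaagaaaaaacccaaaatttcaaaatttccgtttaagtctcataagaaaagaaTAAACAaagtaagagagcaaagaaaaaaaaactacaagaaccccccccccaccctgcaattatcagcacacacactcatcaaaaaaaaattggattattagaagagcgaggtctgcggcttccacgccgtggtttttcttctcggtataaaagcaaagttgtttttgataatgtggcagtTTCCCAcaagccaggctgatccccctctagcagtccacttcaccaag
These matches describe letters in a window and are no measurement of binding.

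*Foxp3* lies on chromosome X at 7573644 to 7595245 (GRCm38, GENCODE M21, plus strand). It had 230.3, 300.4 and 189 CPM in OGT-sufficient replicates 1, 2 and 3, and 284, 249.7 and 292 CPM in OGT-deficient replicates 1, 2 and 3. The groups overlapped, and the highest and the lowest sample were both OGT-sufficient. The log2 fold change was 0.20 (standard error 0.17, 95% interval -0.18 to 0.58), with an unadjusted p of 0.269 and an adjusted p of 0.840 in edgeR's quasi-likelihood test. On the linear scale this interval runs from 0.881 to 1.496 of the OGT-sufficient level. The size of the log2 fold change depended on which library was left out. It was 0.43 (unadjusted p of 0.0218, adjusted p of 0.598 by edgeR) without OGT-sufficient replicate 2. It was 0.30 without OGT-deficient replicate 2 and 0.064 without OGT-sufficient replicate 3. Exons of *Foxp3* share 31.5% of their bases with other annotated genes, among them *Flicr* on the same strand, whose reads cannot be told apart from those of *Foxp3*.

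**Figure D1:**
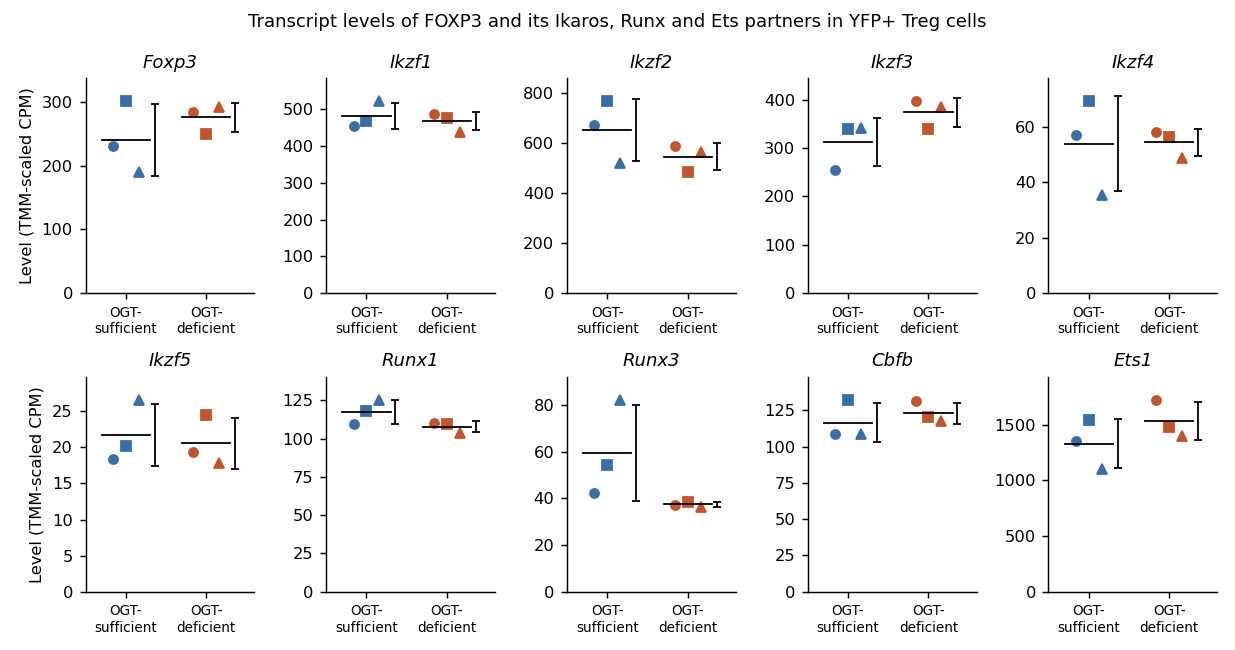
Transcript level of each of the 10 genes in TMM-scaled CPM (vertical axes, each starting at 0). Circles, squares and triangles are replicates 1, 2 and 3 of OGT-sufficient (blue) and OGT-deficient (orange) Treg cells, the line is the mean and the bar 1 SD (n = 3). Only in *Runx3* did the groups not overlap, with 42.2 to 82.1 CPM against 36.4 to 38.5 CPM.

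Among the Ikaros family genes, *Ikzf1* was the least variable. Ikaros, its product, is needed for lymphocyte development. *Ikzf1* (11:11685003 to 11772926) had 453, 466 and 519.7 CPM in the OGT-sufficient and 487, 474 and 438 CPM in the OGT-deficient samples. Its groups overlapped, with a log2 fold change of -0.040 (95% interval -0.29 to 0.21).

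*Ikzf2*, which encodes Helios, was at 673, 768 and 523 CPM in the OGT-sufficient and at 588, 485 and 567 CPM in the OGT-deficient samples (1:69531214 to 69687245). The 2 highest samples were OGT-sufficient, but OGT-sufficient replicate 3 lay among the OGT-deficient ones. The log2 fold change was -0.26 (standard error 0.16, 95% interval -0.62 to 0.10, unadjusted p of 0.136, adjusted p of 0.762 by edgeR). It was -0.39 (unadjusted p of 0.0130, adjusted p of 0.584 by edgeR) without OGT-sufficient replicate 3 and -0.093 without OGT-sufficient replicate 2. *Ikzf3* encodes Aiolos, best known from B cells and T helper subsets, and lies at 11:98464902 to 98546031. It had 255, 340.0 and 341 CPM in the OGT-sufficient and 396, 339 and 385 CPM in the OGT-deficient samples. Here the 2 highest samples were OGT-deficient, and OGT-deficient replicate 2 lay between OGT-sufficient replicates 1 and 2. The log2 fold change of *Ikzf3* was 0.26 (standard error 0.14, 95% interval -0.063 to 0.58, unadjusted p of 0.102, adjusted p of 0.754 by edgeR). Without OGT-sufficient replicate 3 it was 0.34 (unadjusted p of 0.0452, adjusted p of 0.716 by edgeR). Without OGT-sufficient replicate 1 it was 0.17 (unadjusted p of 0.227).

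*Ikzf4*, which encodes the corepressor Eos, lies at 10:128630843 to 128645991. It was low, with 57.2, 69.2 and 35.5 CPM in the OGT-sufficient and 58.0, 56.4 and 49.0 CPM in the OGT-deficient samples. All OGT-deficient samples fell within the range of the OGT-sufficient ones, and the log2 fold change was 0.014 (95% interval -0.49 to 0.51). That interval still allows a change of about the size seen in *Ikzf2* or *Ikzf3* in either direction. *Ikzf5*, the gene of Pegasus (7:131388652 to 131410521), had 18.4, 20.2 and 26.6 CPM in the OGT-sufficient and 19.3, 24.5 and 17.8 CPM in the OGT-deficient samples. Its log2 fold change was -0.080 (95% interval -0.54 to 0.38). Because 84.5% of its exon bases overlap genes of the opposite strand, mainly *Pstk*, and the strand setting of the counting is not given in the sources used here, its level is uncertain.

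Of the Runx genes, *Runx3* differed more than any Ikaros gene and *Runx1* did not. *Runx3* lies at 4:135120652 to 135177990 on the plus strand, with no other annotated gene over its exons, and is known for its part in the choice of the CD8 lineage and in natural killer cells. It had 42.2, 54.1 and 82.1 CPM in OGT-sufficient replicates 1, 2 and 3 (158, 201 and 312 counts), and 37.1, 38.5 and 36.4 CPM in OGT-deficient replicates 1, 2 and 3 (144, 152 and 139 counts). The OGT-deficient samples lay close together and all below the OGT-sufficient ones, of which replicate 3 was far the highest. The log2 fold change was -0.67 (standard error 0.22, 95% interval -1.18 to -0.16), with an unadjusted p of 0.0151 and an adjusted p of 0.565 by edgeR's quasi-likelihood test. Without OGT-sufficient replicate 3 it was -0.36 (unadjusted p of 0.0393, adjusted p of 0.713 by edgeR), so this library carried a large part of the difference. It was negative with an unadjusted p under 0.05 in 17 of 17 alternative fits, where the adjusted p ranged from 0.157 to 0.997.

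The library with the highest *Runx3* also had the highest summed level of several marker lists of other cells. The B cell list, 7 genes, was at 354.9 CPM in OGT-sufficient replicate 3 and between 91.5 and 158 CPM in the other 5 samples. All 7 had a negative log2 fold change, beside 5774 of the 10949 genes tested, with a median of -0.91 against -0.017. *Ebf1* (-1.67) and *Cd79b* (-0.71) were lower in each OGT-deficient sample at an unadjusted p under 0.05 by edgeR, beside 4.01% of all genes. With a sample left out they came to as little as -0.56 and -0.29. The neutrophil and monocyte list, 6 genes, was at 328 CPM in OGT-sufficient replicate 3 and between 133 and 227 CPM elsewhere. Of its genes, *S100a9* (-2.86) was lower and *Lyz2* (0.63) higher in each OGT-deficient sample. *S100a9* was at 76.9 CPM in OGT-sufficient replicate 3 and between 3.67 and 9.09 CPM elsewhere. The erythroid list, 5 genes, was at 845 against 216 to 478 CPM. The NK cell list, 3 genes, was at 10.3 against 2.10 to 4.90 CPM. The CD8 T cell list, 2 genes, was at 22.6 CPM there and highest in OGT-deficient replicate 1, at 26.6 CPM, although *Cd8a* alone was highest in OGT-sufficient replicate 3, at 7.90 CPM. The dendritic cell list, 4 genes, was lowest in OGT-sufficient replicate 3, at 46.3 CPM, while its gene *Zbtb46* (-0.75) was lower in each OGT-deficient sample. In none of these lists was a gene at 0 in every sample. The macrophage list, 12 genes, ranged from 1984 to 4193 CPM in the OGT-sufficient and from 1437 to 6037 CPM in the OGT-deficient samples. With the macrophage list as a covariate the log2 fold change of *Runx3* was -0.61, but that list was not raised in OGT-sufficient replicate 3. The part of the B cell, neutrophil, erythroid, NK and CD8 lists in the *Runx3* difference was not tested.

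**Figure D2:**
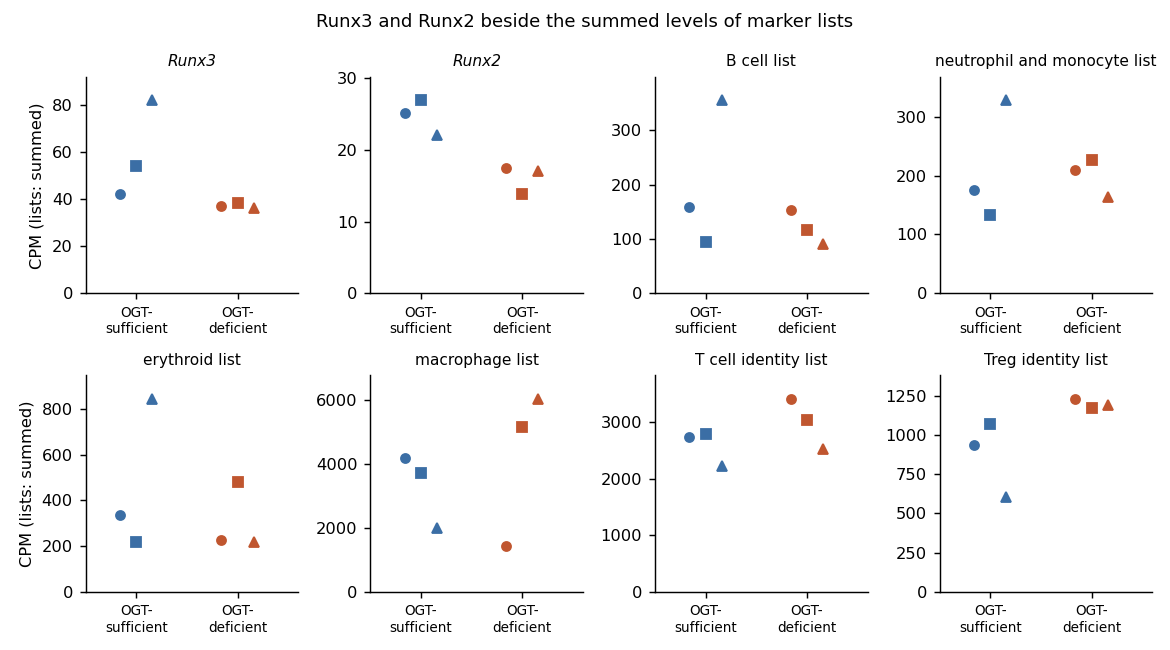
Levels of *Runx3* and *Runx2* in TMM-scaled CPM and summed CPM of 6 marker lists (vertical axes, each starting at 0), with circles, squares and triangles for replicates 1, 2 and 3. OGT-sufficient replicate 3 (blue triangle) was highest for *Runx3* at 82.1 CPM and for the B cell list at 354.9 CPM, and lowest for the Treg identity list at 605 CPM and the T cell identity list at 2220 CPM.

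*Runx1*, at 16:92601466 to 92826149, is the Runx gene best known for binding FOXP3. It had 109, 118 and 125 CPM in the OGT-sufficient and 109.9, 109.8 and 104 CPM in the OGT-deficient samples. The ranges met at about 109 CPM, and the log2 fold change was -0.12 (standard error 0.11, 95% interval -0.37 to 0.12, adjusted p of 0.845 by edgeR). *Cbfb* (8:105170674 to 105217989), the subunit that both Runx proteins need, had 109, 132 and 109 CPM in the OGT-sufficient and 131, 120.4 and 118 CPM in the OGT-deficient samples. The groups overlapped, with a log2 fold change of 0.079 (95% interval -0.20 to 0.36). With each sample left out in turn it ranged from 0.031 to 0.22 for *Cbfb* and from -0.14 to -0.061 for *Runx1*. *Runx2*, known from bone formation and not a member, had 25.1, 26.9 and 22.1 CPM in the OGT-sufficient and 17.5, 13.9 and 17.0 CPM in the OGT-deficient samples. These groups did not overlap, and its log2 fold change was -0.61 (standard error 0.17, unadjusted p of 0.0062, adjusted p of 0.465 by edgeR). Unlike *Runx3*, *Runx2* was not highest in OGT-sufficient replicate 3.

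*Ets1* (9:32636221 to 32757820) encodes the founding Ets factor, which is abundant in resting T cells. It had 1348, 1539 and 1099.9 CPM in the OGT-sufficient and 1722, 1475 and 1401 CPM in the OGT-deficient samples. The lowest 2 samples were OGT-sufficient and the highest was OGT-deficient, but the groups overlapped. The log2 fold change was 0.21 (standard error 0.16, 95% interval -0.15 to 0.56, unadjusted p of 0.224, adjusted p of 0.810 by edgeR). It was 0.097 without OGT-sufficient replicate 3, 0.11 without OGT-deficient replicate 1 and 0.36 without OGT-sufficient replicate 2.

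Of the 10 members, 0 passed an FDR of 0.1 in edgeR's quasi-likelihood test, where 0.0274% of all genes tested did. DESeq2, edgeR's exact test and the other alternatives also gave 0. Floxed *Ogt* did not pass in this test either, with a log2 fold change of -1.21 and an adjusted p of 0.191. It passed in 4 of 17 alternative fits, so a member that does not pass is not shown to be unchanged. At an unadjusted p under 0.05, 1 of 10 was lower, *Runx3*, against 4.01% of all genes, and 0 were higher, against 3.09%. Groups without overlap were found in 1 of 10 members in the lower direction, again *Runx3*, against 7.48% of all genes, and in 0 in the higher direction, against 5.72%. Over the members the median log2 fold change was -0.013, 5 of them above and 5 below 0, and -0.017 over all genes. The intervals of the members other than *Runx3* all held 0, and the narrowest, of *Runx1*, ran from -0.37 to 0.12.

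**Figure D3:**
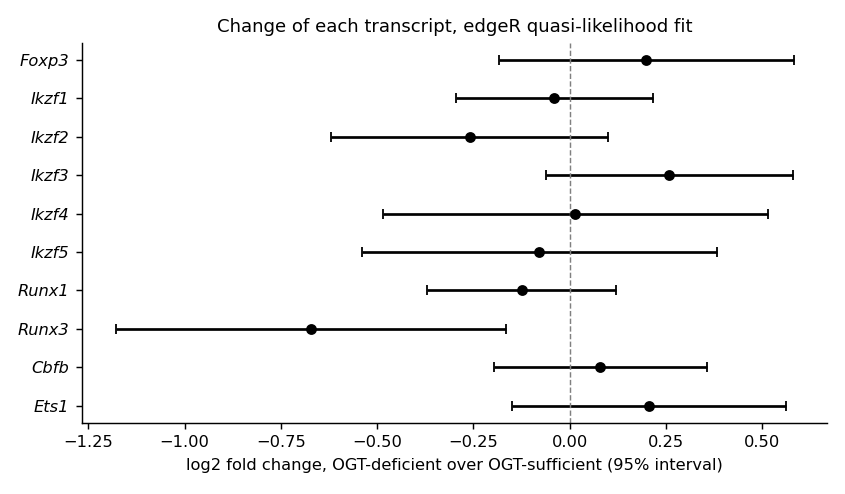
Log2 fold change of OGT-deficient over OGT-sufficient Treg cells (horizontal axis) for each of the 10 genes. Points are estimates of edgeR's quasi-likelihood fit and bars are 95% intervals, with a dashed line at 0. The interval of *Runx3*, -1.18 to -0.16, is the one that leaves out 0.

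Within-group spread also differed between the genotypes. The coefficient of variation was higher in the OGT-sufficient than in the OGT-deficient samples in all 10 members, with 34.4% against 2.75% in *Runx3*, 31.6% against 8.84% in *Ikzf4* and 23.4% against 8.24% in *Foxp3*. Over all genes tested it was higher in the OGT-sufficient samples in 58.4% of 10949 genes. These values rest on 3 samples a group, among them the library that stood apart, and were not tested.

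Ratios of counts within a library do not depend on how libraries are scaled, and 8 of them were compared with an exact two-sided permutation test, whose smallest possible p with 3 samples against 3 is 0.1. *Foxp3* counts were 0.0841, 0.107 and 0.0853 of the summed counts of 8 T cell identity genes in the OGT-sufficient and 0.0832, 0.0823 and 0.116 in the OGT-deficient samples. The difference of the mean log2 ratios was 0.013 (exact p of 1, adjusted p of 1). *Foxp3* to *Ets1* gave 0.171, 0.195 and 0.172 against 0.165, 0.169 and 0.209, a difference of 0.0080 (exact p of 1). In both ratios the highest sample was OGT-deficient replicate 3 and the groups overlapped.

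*Runx1* counts were 2.59, 2.17 and 1.53 times those of *Runx3* in the OGT-sufficient and 2.96, 2.86 and 2.84 times in the OGT-deficient samples. All OGT-deficient ratios were the higher ones, by 0.49 on the log2 scale (exact p of 0.1, adjusted p of 0.4 over the 8 ratios). Without OGT-sufficient replicate 3 the difference was 0.28. *Cbfb* over the sum of *Runx1* and *Runx3* was 0.718, 0.770 and 0.524 in the OGT-sufficient and 0.893, 0.812 and 0.841 in the OGT-deficient samples, a difference of 0.36 (exact p of 0.1, adjusted p of 0.4). Without OGT-sufficient replicate 3 it was 0.19, and the groups did not overlap either. These 2 ratios share the *Runx3* counts and are not independent of the *Runx3* result.

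*Ikzf3* to *Ikzf1* was 0.563, 0.730 and 0.657 in the OGT-sufficient and 0.813, 0.715 and 0.880 in the OGT-deficient samples, a log2 difference of 0.31 (exact p of 0.2, adjusted p of 0.533). *Ikzf2* to *Ikzf1* was 1.48, 1.65 and 1.01 against 1.21, 1.02 and 1.29, a difference of -0.21 (exact p of 0.5). *Ikzf4* to *Ikzf1* was 0.126, 0.149 and 0.0684 against 0.119, 0.119 and 0.112, where the lowest value was again that of OGT-sufficient replicate 3 (difference 0.10, exact p of 1). *Ikzf5* to *Ikzf1* differed by -0.037 (exact p of 0.8). None of the 4 Ikaros ratios separated the groups.

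**Figure D4:**
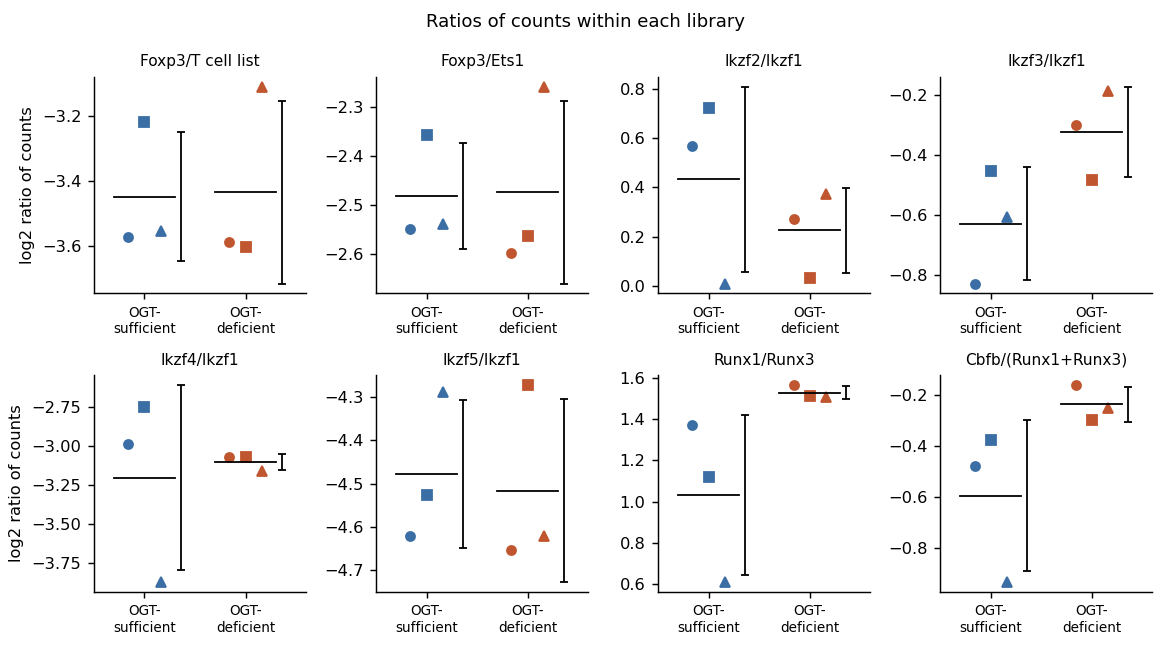
Log2 ratio of counts within each library (vertical axes) for 8 pairs of genes, with circles, squares and triangles for replicates 1, 2 and 3, a line at the mean and a bar of 1 SD (n = 3). The groups did not overlap for *Runx1* to *Runx3* and for *Cbfb* to the sum of both, each higher in OGT-deficient cells (differences of 0.49 and 0.36).

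Levels of different genes were compared per length, as CPM per kb of merged exons. *Ets1* was the highest, at 169 ± 24.5 CPM per kb (SD over the 6 samples), followed by *Ikzf1* at 81.9 ± 4.91. Neither range overlapped the next in the order. *Foxp3* followed at 56.3 ± 9.39 CPM per kb, *Ikzf2* at 51.7 ± 8.93, *Ikzf3* at 39.2 ± 5.68 and *Cbfb* at 34.4 ± 2.98, and each of these overlapped its neighbour in this run. *Runx3* at 9.68 ± 3.55, *Runx1* at 9.36 ± 0.640 and *Ikzf4* at 9.05 ± 1.87 CPM per kb formed a lower run, below the range of *Cbfb*, and overlapped one another. *Ikzf5* was the lowest at 3.70 ± 0.624 CPM per kb. Per length of the longest transcript, *Ikzf3* came before *Foxp3* and *Ikzf2*, and *Runx1* came before *Runx3*, while the other 5 genes kept their place.

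**Figure D5:**
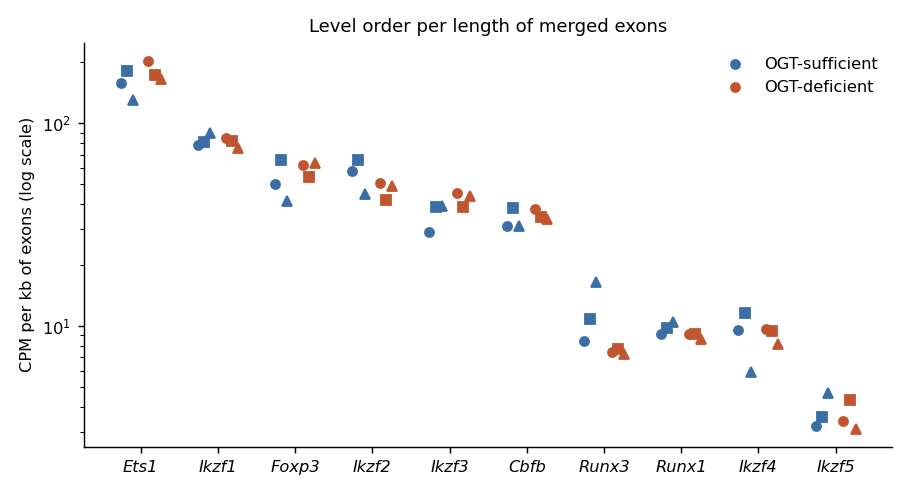
CPM per kb of merged exon length (vertical axis, log scale) of the 10 genes in order of their mean over the 6 samples. Circles, squares and triangles are replicates 1, 2 and 3 of OGT-sufficient (blue) and OGT-deficient (orange) cells. *Ets1* was highest with a mean of 169 CPM per kb and *Ikzf5* lowest with 3.70 CPM per kb.

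Of the length-scaled sum of the 5 Ikaros genes, *Ikzf1* made up 44.3% ± 4.29 in OGT-sufficient and 44.1% ± 2.25 in OGT-deficient cells (SD, n = 3 each). *Ikzf2* made up 29.9% ± 4.81 and 25.7% ± 1.77. *Ikzf3* made up 16.3%, 19.4% and 21.1% in the OGT-sufficient and 23.4%, 22.0% and 24.5% in the OGT-deficient samples, so its shares did not overlap while its CPM did. This share was not tested. The percentages rest on merged exon length. Per length of the longest transcript, *Ikzf3* had a higher mean level than *Ikzf2*, with 74.4 against 64.7 CPM per kb.

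The pattern of *Foxp3* over the 6 samples was most like that of *S1pr2* (Pearson r of 0.990), *Snora17* (0.990), *Mbnl3* (0.988), *Mob3a* (0.988) and *Htatip2* (0.985) in log2 CPM, among 10939 genes compared. These r values describe 6 samples that share their libraries, and 129 genes had an r over 0.9. *S1pr2* and *Snora17* were low, with means of 4.01 and 6.06 CPM in OGT-sufficient and 4.99 and 7.48 CPM in OGT-deficient samples. Without the 2 samples farthest from the *Foxp3* median, r for these 5 genes was between 0.922 and 0.998 over 4 samples. Since the 5 genes were picked by their r over the same samples, this is no independent check. Among the members, r with *Foxp3* was highest for *Ets1* (0.847) and *Cbfb* (0.815). It was lowest for *Ikzf5* (-0.68), *Runx3* (-0.67) and *Ikzf1* (-0.64).

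Genes that FOXP3 is known to act on were counted from a list. Of 17 genes that FOXP3 activates, 3 were lower and 4 higher at an unadjusted p under 0.05, beside 4.01% and 3.09% of all genes, none passed an FDR of 0.1 in edgeR's test, and the median log2 fold change was 0.12. *Gpr83*, a receptor gene of Treg cells, had 62.8, 106 and 45.5 CPM in the OGT-sufficient and 183, 169 and 178 CPM in the OGT-deficient samples (log2 fold change 1.30). *Lrrc32*, whose product GARP holds latent TGF-beta on the Treg surface, had 132, 138 and 92.4 CPM against 208, 184 and 218 CPM (0.75). *Socs2* (0.96) and *Tnfrsf18* (0.57) were also higher in each OGT-deficient sample, and *Klrg1* (-1.88) and *Gzmb* (-1.91), genes of effector Treg cells, were lower in each. These last 2 rest on few reads. *Klrg1* had 32, 44 and 24 counts in the OGT-sufficient and 13, 10 and 5 in the OGT-deficient samples. *Gzmb* had 17, 32 and 21 against 11, 3 and 5 counts. *Tnfrsf18* was at 0.31 without OGT-sufficient replicate 3, and its unadjusted p was 0.0971 and 0.0822 without OGT-deficient replicates 1 and 2. The study displays *Gpr83*, *Socs2*, *Klrg1* and *Gzmb* for their change in these samples, so their direction is not independent evidence. The adjusted p of the 6 was between 0.216 and 0.685 by edgeR, and the Treg identity list, which shares 5 genes with this one, was lowest in OGT-sufficient replicate 3.

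The other lists were counted in the same way, and 4.01% lower and 3.09% higher over all genes amount to less than 2 genes of any of them in either direction. Of 11 genes that FOXP3 represses 10 were tested, with 1 lower, *Ptpn22* (-0.32), none higher and a median of -0.11. The unadjusted p of *Ptpn22* reached 0.170 with a sample left out, without OGT-deficient replicate 2. Of 21 regulators of the *Foxp3* locus, 0 were lower and 2 higher, the nuclear receptors *Nr4a1* (0.45) and *Nr4a3* (0.28), with a median of 0.091. *Nr4a3* had an unadjusted p under 0.05 in 8 of 17 alternative fits, where it came to as little as 0.070, and *Nr4a1* in 16 of 17. Of 30 cofactors of FOXP3 and Ikaros proteins, 2 were lower and 1 higher, with a median of -0.085. Of these, *Irf4*, a factor of effector Treg cells, was higher in each OGT-deficient sample (0.58), and *Ezh2*, a histone methyltransferase, was lower in each (-0.39). Of 17 other Ets and Runx family genes 16 were tested, with 2 lower, *Runx2* among them, and none higher, and a median of -0.061. In these 4 lists too 0 genes passed an FDR of 0.1 by edgeR's quasi-likelihood test.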

How the data were processed

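Sorted YFP+ cells in 6 samples, 3 per genotype, were sequenced as paired 50-base reads. The authors trimmed reads with Trimmomatic 0.33, checked them with FastQC and mapped them with Bowtie2 2.2.4.0 to mm10. The paper names Cuffquant for quantification and the submitters' processing notes name featureCounts, so which tool made the table is open. The deposited values are whole-number counts per gene symbol without normalization. Columns with the authors' own comparison (fold change, p-value, FDR, group means) were not used, and 0 other per-sample columns were left out. Annotation, strand and the handling of shared reads are not given in the sources used here.

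Samples were grouped by genotype label. The test was run with edgeR 4.0.16 under R 4.3.3: filterByExpr at a minimum count of 10, TMM scaling, quasi-likelihood test without a replicate block, and Benjamini-Hochberg adjustment over 10949 genes. DESeq2 1.42.0, other scalings, filters, covariates and left-out samples were alternatives. The fit was tested on simulated data. A floor of 3 counts is 0.759 to 0.808 CPM, and every member lay above it. Replicates of a group differed by a chi-square per degree of freedom of 3.31 to 22.0, so no library was counted as a repeat. The members and lists were chosen with earlier results of these data known. Named are the members and *Ogt*, list genes with an unadjusted p under 0.05 and no overlap between groups (at most 6 a list, by p), and the 5 genes most correlated with *Foxp3*. *Cd4*, *Il2ra* and *Cd8a* are given as marker checks. Lengths, loci and GC came from GENCODE M21, which matched 24044 of the 24420 symbols, and promoters from RefSeq.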

Additional observations from a re-analysis of the deposited data

How the results depend on the processing

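*Runx3*, *Runx1* and *Ikzf2* kept a negative and *Foxp3*, *Ikzf3* and *Ets1* a positive log2 fold change in all 17 alternative fits, and 0 members passed an FDR of 0.1 in any. Scaling to the T cell identity list moved the median of all genes from -0.017 to -0.22 and the percentage of lower ones among genes with an unadjusted p under 0.05 from 56.5% to 92.9% (67.4% with library size only). Under it *Cbfb* was at -0.13 and *Ikzf4* at -0.17, which is 0.095 and 0.053 above that median. *Foxp3* was at 0.022 under the same scaling, 0.24 above that median. *Ikzf4* was at -0.0056 with library size only. *Ikzf1* was at 0.011 without a filter and 0.00028 with the length and GC offset. With a replicate left out, *Ikzf1* ranged from -0.070 to 0.039, *Ikzf4* from -0.20 to 0.27 and *Ikzf5* from -0.19 to 0.10. The cause was not tested.

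Members with an unadjusted p under 0.05 numbered 1, but 2 with T cell scaling, 2 without a filter, and 1 to 3 with a replicate left out, 3 of them without OGT-sufficient replicate 3. Genes of the 5 other lists numbered 8 lower and 7 higher. Lower genes were 4 to 8 with a replicate left out, 4 without OGT-deficient replicate 2. Higher genes were 3 with T cell scaling and 5 to 10 with a replicate left out. With a replicate left out, the log2 ratio difference ranged from -0.15 to 0.13 for *Foxp3* over the T cell list, from -0.099 to 0.070 for *Foxp3* over *Ets1*, from -0.23 to 0.33 for *Ikzf4* over *Ikzf1* and from -0.16 to 0.058 for *Ikzf5* over *Ikzf1*. With longest transcripts 5 members changed place in the level order. Genes called at an FDR of 0.1 over the whole table numbered 3, and 0 to 131 in the alternatives, the most without a filter.

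Replicate numbers did not pair the samples (correlations of same-numbered deviations -0.28, 0.0073 and -0.12). With the replicate block 1 member had an unadjusted p under 0.05, *Runx3* at -0.62, and list genes numbered 5 lower and 6 higher. The ratio tests over same-numbered pairs, whose smallest p is 0.25, gave 0.25 for *Runx1* over *Runx3* and for *Cbfb* over both. Depth limits *Ikzf5* most, with 68 to 101 counts per sample, then *Runx3* with 139 to 312 and *Ikzf4* with 135 to 257. A filter of 10 counts per sample left out *Klrg1* and *Gzmb*.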
